A study of Drosophila melanogaster with 6 samples.

Results

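The genes described here are Drosophila melanogaster genes whose symbol is a CG number and whose signal was lower in sage mutant embryos. A CG number is the label a gene keeps when it was predicted from the genome and has no other symbol. Some of these genes still carry a second name. All were chosen by measured values. A probe set, the group of short probes on the array that reads 1 transcript, was taken if it named 1 gene with a CG symbol, had a wild type mean log2 signal of at least 7 and a mutant mean lower by at least 1, and had every mutant array below every wild type array. 10 CG genes that are nearly lost in the mutants were left out. The rule found 46 probe sets of 43 genes among 18769 probe sets that are no array controls. Of these, 13647 name 1 gene, 5667 name 1 CG gene and 2199 of the CG probe sets have a wild type mean of at least 7. Counted as genes, the members are 43 of 5209 with a CG symbol and of 11982 in all.

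The study set 3 samples of sage mutant embryos against 3 of Oregon R, a laboratory strain used as wild type, matched for age. Both groups covered embryonic stages 11 to 16, were aged at 25 degrees and were sorted on a COPAS instrument, and each sample was read on 1 Affymetrix array. The sage allele, the strain background of the mutants and the number of embryos per sample are not given in the sources used here. Any difference in background therefore cannot be told apart from loss of sage. Since whole embryos were extracted, fewer cells of a type and less RNA per cell cannot be told apart either. Nothing in the labels says that the 3 samples of a group were separate collections, so the SD and SE given here may measure technical spread alone.

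The sage gene encodes a transcription factor with a basic helix-loop-helix domain, which acts in the salivary gland of the embryo together with the forkhead protein Fkh. The gland forms from a patch of surface ectoderm that folds inward to make a tube, and its cells become specialised for making, modifying and secreting protein. A gene with only a CG symbol may still encode a well-defined kind of protein, and some of the members carry a second name in the RefSeq gene table that says which.

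sage signal was 5.28, 5.44 and 5.12 in sage mutant replicates 1 to 3, against 8.21, 8.61 and 7.93 in wild type replicates 1 to 3. Each mutant array was thus far below each wild type array, with a log2 difference of −2.97 (SE 0.19) and a limma adjusted p of 0.00125. Of 10 measured salivary gland markers, 5 fell and none rose by the same fit, a linear model of all probe sets (adjusted p under 0.05). These 5 were sage itself, PH4alphaSG1, PH4alphaSG2, Papss and sll. By that fit 1.93% of all 18769 probe sets were called lower. The other 5 markers were not called: sens (log2 difference −0.99), pip (−0.73), eyg (−0.39), fkh (−0.28) and hkb (−0.22). The summed linear signal of the 10 lay between 2676 and 3487 on the mutant arrays and between 5718 and 7088 on the wild type arrays. No larval glue gene changed among 7, and in the other 8 marker lists, of midgut, muscle, hemocytes, nervous system, trachea, epidermis, Malpighian tubule and germ line, 3 genes fell and 4 rose. Of the 2 measured genes listed under Malpighian tubule, ry averaged 4.19 in the mutants and 8.26 in wild type (log2 difference −4.06). The other, byn, averaged 6.64 in the mutants and 5.9998 in wild type (0.64, limma adjusted p 0.0631). The summed signal of the pair, 109 to 129 in the mutants and 359.7 to 384.6 in wild type, thus follows ry alone. It is not read as a measure of tubule cells. Summed signal also did not overlap between groups for germ line and tracheal markers. The 3 germ line genes measured summed to 128 to 231 in the mutants and 93.5 to 109 in wild type. The 5 tracheal genes measured summed to 11011 to 12899 in the mutants and 9434 to 10883 in wild type. No gene of either list was called. The log2 difference was 1.27 for osk, 0.47 for exu and 0.13 for vas. Of the tracheal genes, serp had 0.37, pio 0.34 and verm 0.19, while btl had −0.33 and vvl −0.13. Neither sum is read as a measure of cells. On the mutant arrays the control transcripts also gave less 5′ signal. The 5′ minus 3′ difference averaged −3.68 ± 0.61 in the mutants and −1.84 ± 0.08 in wild type (SD, n = 3 each). The part of the marker shifts in the values of the CG genes was not tested. The 5′ minus 3′ difference was entered as a covariate, and its values are given beside the members it moved by over 1.5 times.

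The lower signal of the members is a consequence of how they were selected, and no test is given for it. By limma 42 of the 46 probe sets, from 40 genes, had an adjusted p under 0.05, where 1.93% of all 18769 probe sets were called lower. Nothing is read from that count, because the rule used the same contrast. The count also depends on single arrays, with 9 and 13 members called without mutant replicates 3 and 2, and 23 and 24 called without wild type replicates 1 and 3. Among the 2199 CG probe sets with a wild type mean of at least 7, 2.55% met the criteria on the fall and on overlap, with the 10 nearly lost genes counted in. The same criteria were met by 2.32% of the 4657 probe sets of genes with another kind of symbol and the same limit on wild type signal.

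The median log2 difference of the 46 probe sets, mutant minus wild type, was −1.46, which is a 2.76-fold lower signal, beside −0.03 over all probe sets. 5 probe sets were lower by 2 or more, 18 by 1.5 to 2 and the other 23 by 1 to 1.5. The 10 genes left out were lower by 2.48 to 5.83, so that the largest falls among the members overlap the smallest one there. The wild type means ran from 7.04 to 11.86, which places the members between the 59.2 and 97.5 percentiles of all probe sets. 20 of the 46 lay between 8 and 9 and 9 lay at 10 or above. The gap between the lowest wild type and the highest mutant array was 0.35 for CG17612, the narrowest, and 2.44 for CG32243, the widest, with a median of 0.90.

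**Figure D1:**
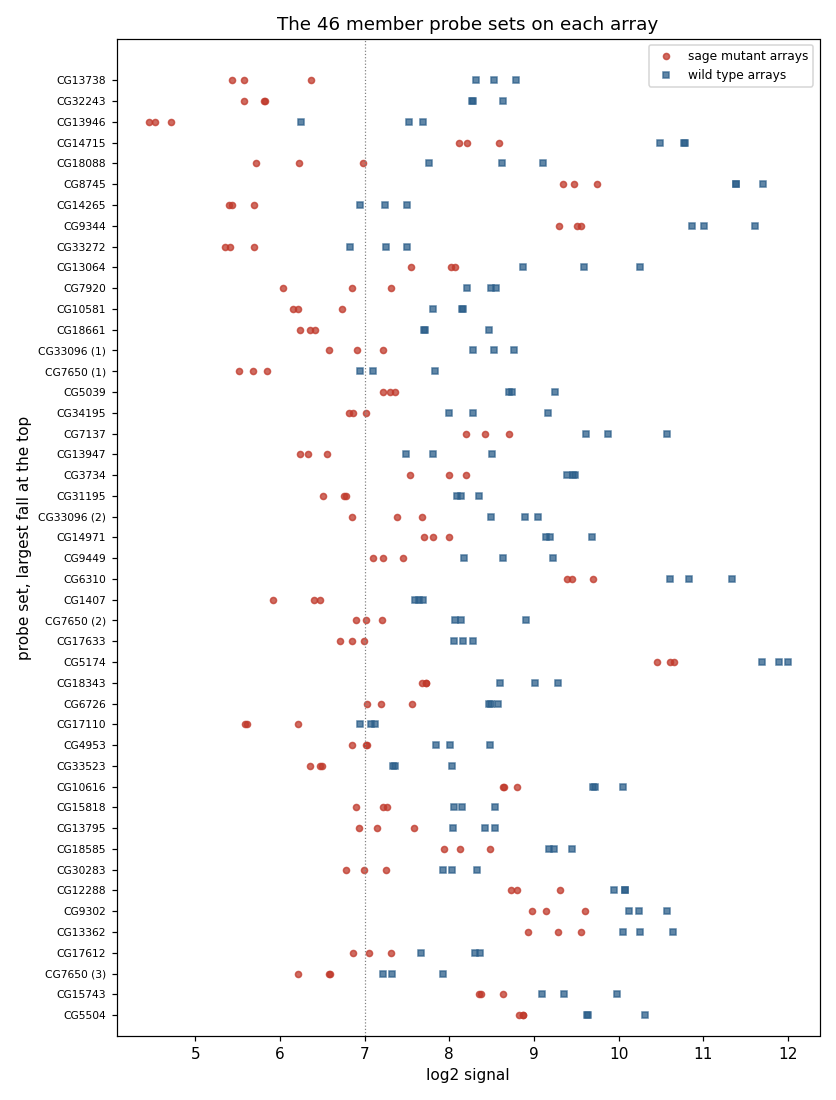
Log2 signal of the 46 member probe sets (rows, largest fall at the top) on the 3 sage mutant arrays (circles) and the 3 wild type arrays (squares); the dotted line is the rule's wild type mean of 7, and a number in brackets tells probe sets of 1 gene apart. No row has overlapping groups, which the rule required, and the gap is narrowest, at 0.35, for CG17612.

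**Figure D2:**
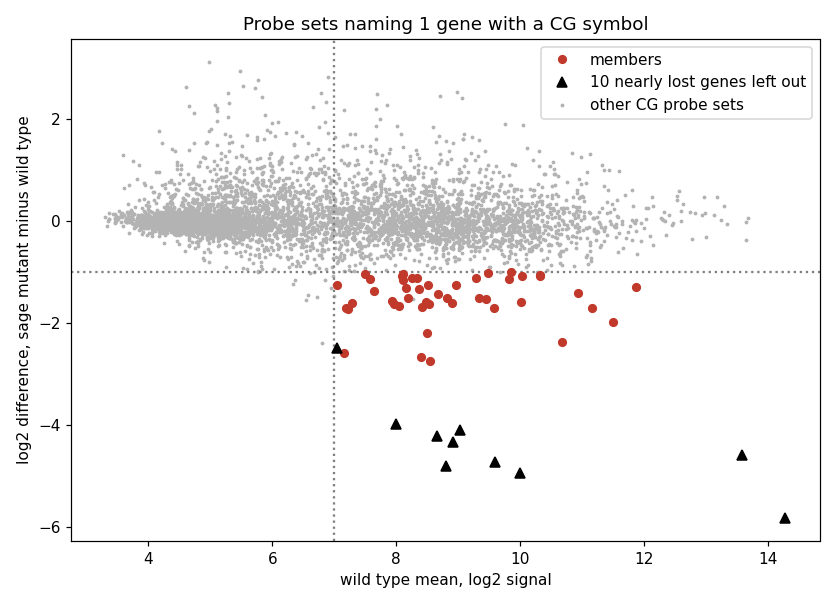
Log2 difference (sage mutant minus wild type) against the wild type mean log2 signal for the 5667 probe sets naming 1 CG gene, with the members as circles, the 10 genes left out as triangles and the rule's limits as dotted lines. The members lie between −2.75 and −1.004, below the bulk of CG probe sets and mostly above the 10 genes left out.

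The members with a second name come first. CG14715, on arm 3R, is also listed as FKBP13, in humans an FK506-binding prolyl isomerase of the endoplasmic reticulum. Its signal was 8.21, 8.12 and 8.58 in mutant replicates 1 to 3, against 10.49, 10.78 and 10.77 in wild type replicates 1 to 3. The arrays of each group lie close together, and the log2 difference was −2.37 (SE 0.16), or 5.19-fold. CG14715 had the highest wild type level among the 5 members with the largest falls.

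CG18661 (arm 2L, METTL26) and CG34195 (arm 2R, METTL6) carry names of human methyltransferase-like proteins, and the human METTL6 modifies transfer RNA. CG18661 had 6.24, 6.35 and 6.41 in mutant replicates 1 to 3 and 7.71, 8.47 and 7.70 in wild type replicates 1 to 3, a log2 difference of −1.63 (SE 0.22). CG34195 averaged 6.90 ± 0.10 in the mutants and 8.48 ± 0.61 in wild type (SD, n = 3 each). In both genes the wild type spread came mainly from a high replicate 2, and without that array the differences were −1.37 and −1.24.

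Several second names refer to membranes and vesicle traffic, although no list of such genes was tested here. CG1407 (arm 2R) is listed as ZDHHC15, in humans an enzyme that attaches palmitate to proteins at the Golgi. CG4953 (arm 2L) is listed as TRAPPC13, a component of the TRAPP complex, which tethers vesicles. CG33523 (arm 3L) is listed as Vap-33B, a name of the VAP family of endoplasmic reticulum membrane proteins. CG4953 averaged 6.97 ± 0.10 in the mutants and 8.11 ± 0.33 in wild type (SD, n = 3 each). CG33523 averaged 6.44 ± 0.08 in the mutants and 7.57 ± 0.40 in wild type. CG1407 averaged 6.26 ± 0.31 in the mutants and 7.64 ± 0.05 in wild type. For CG4953 and CG33523 the wild type arrays spread more than the mutant ones, and for CG1407 it was the other way round. The values of CG33523 and CG1407 are those of their member probe sets. The brightest probe sets of these 2 genes had log2 differences of only −0.49 and −0.36, with overlapping groups.

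CG12288 (arm 2L) is listed as RBM34, a human RNA-binding motif protein. It had 9.31, 8.73 and 8.80 in mutant replicates 1 to 3 and 10.07, 10.08 and 9.94 in wild type replicates 1 to 3, and mutant replicate 1 was the array nearest to wild type. The log2 difference was −1.08, and −1.93 with the covariate. CG5504 (arm 2R) is listed as DnaJ and as lethal (2) tumorous imaginal discs, a cochaperone of the DnaJ family. It averaged 8.85 ± 0.02 in the mutants and 9.86 ± 0.39 in wild type, and with −1.004 it is the member nearest to the limit on the fall. CG30283 (arm 2R) is listed as SP37 and SPH37, names used for serine proteases and for their relatives without protease activity. It averaged 7.01 ± 0.23 in the mutants and 8.09 ± 0.21 in wild type (SD, n = 3 each for these genes), a log2 difference of −1.08 that was −0.55 with the covariate. The second names of CG7920 (i130) and of CG31195 (arm 3R, a lethal mutation) name no kind of protein. CG31195 averaged 6.68 ± 0.15 in the mutants and 8.19 ± 0.14 in wild type, among the least variable members.

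The remaining 32 genes have no second name of this kind in the table, and no function is given for them here. CG13738 (arm 3L) had the largest difference in the fit without the covariate, −2.75 (SE 0.27), or 6.75-fold. With the covariate it had −1.60 (SE 0.61), and CG18088 (−3.87), CG32243 (−2.66) and CG8745 (−2.50) were among the members with a lower value. Its signal was 5.43, 5.57 and 6.37 in mutant replicates 1 to 3, against 8.79, 8.31 and 8.53 in wild type replicates 1 to 3. Mutant replicate 3 stood above the other mutant arrays, though still well under wild type. CG32243 (arm 3L) had 5.81, 5.57 and 5.82 in mutant replicates 1 to 3 and 8.28, 8.63 and 8.26 in wild type replicates 1 to 3, a log2 difference of −2.66 (SE 0.14). Both of its groups are tight, and no member had a wider gap between them.

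CG13946 (arm 2L) had the lowest mutant level of all members, with 4.52, 4.72 and 4.45 in mutant replicates 1 to 3. Wild type replicates 1 to 3 had 6.25, 7.69 and 7.52, so wild type replicate 1 was well under the other wild type arrays. CG18088 (arm 2L) had 6.98, 5.71 and 6.23 in mutant replicates 1 to 3 and 9.10, 7.76 and 8.62 in wild type replicates 1 to 3. Both groups of CG18088 were scattered, in the same order of replicate numbers, and its SE of 0.43 was the largest among the members. The log2 differences of CG13946 and CG18088 were −2.59 and −2.19, and that of CG18088 was −3.87 (SE 1.04) with the covariate.

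6 member probe sets had a mutant mean at or under 5.79, the highest wild type mean of 7 larval glue genes, which the gland makes later, in larvae. They were CG13738, CG32243, CG13946, CG14265, CG33272 and the dimmest probe set of CG7650. Detection above background was not assessed, so these differences are not exact. CG14265 (arm X) had 5.40, 5.44 and 5.69 in mutant replicates 1 to 3 and 7.495, 6.95 and 7.24 in wild type replicates 1 to 3. CG33272 (arm 3L) had 5.35, 5.69 and 5.41 in mutant replicates 1 to 3 and 7.25, 7.495 and 6.83 in wild type replicates 1 to 3. Their groups do not come near each other, with log2 differences of −1.72 for CG14265 and −1.71 for CG33272. The probe set of CG33272 is of a class, marked x in its name, in which some probes can match other sequences, and so is that of CG13947.

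The mutant means of the members had a median of 7.10, beside 5.98 over all probe sets, and the highest was 10.57. CG8745 (arm 3L) had 9.74, 9.35 and 9.47 in mutant replicates 1 to 3 and 11.38, 11.38 and 11.71 in wild type replicates 1 to 3. CG9344 (arm 2R) had 9.55, 9.30 and 9.50 in mutant replicates 1 to 3 and 11.01, 11.61 and 10.86 in wild type replicates 1 to 3. CG8745 was 3.92-fold and CG9344 3.27-fold lower, yet both were still brighter than 83% of all probe sets in the mutants.

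CG13064 (arm 3L) had 8.02, 7.54 and 8.06 in mutant replicates 1 to 3 and 9.59, 10.25 and 8.87 in wild type replicates 1 to 3, with its wild type arrays far apart. CG10581 (arm 3L) had 6.73, 6.15 and 6.22 in mutant replicates 1 to 3 and 8.16, 8.15 and 7.81 in wild type replicates 1 to 3. The log2 differences were −1.70 (SE 0.35) and −1.67 (SE 0.19). CG13064 was 1 of the 4 probe sets without a limma call, with an adjusted p of 0.051, beside CG17612, CG15743 and 1 of 3 probe sets of CG7650.

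CG5174 (arm 2R) was the brightest member, with 10.66, 10.45 and 10.60 in mutant replicates 1 to 3 and 11.70, 11.89 and 11.996 in wild type replicates 1 to 3. CG6310 (arm 3L) had 9.39, 9.70 and 9.45 in mutant replicates 1 to 3 and 10.83, 11.34 and 10.61 in wild type replicates 1 to 3. The groups of CG5174 are tight and stand 1.04 apart at their nearest arrays, and those of CG6310 stand 0.91 apart.

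CG9302 (arm 2L) had 9.60, 8.98 and 9.15 in mutant replicates 1 to 3 and 10.13, 10.58 and 10.24 in wild type replicates 1 to 3. CG13362 (arm X) had 9.55, 8.93 and 9.29 in mutant replicates 1 to 3 and 10.64, 10.25 and 10.05 in wild type replicates 1 to 3. These bright genes are close to the limit on the fall, with log2 differences of −1.07 and −1.05, and mutant replicate 1 lies nearest to wild type in both. With the covariate CG9302 had −1.80 and CG13362 had −1.64.

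The other members were lower by amounts between these. CG5039 and CG3734 (arm 3R) had log2 differences of −1.61 and −1.54. CG7137 and CG18343 (arm 2R) had −1.58 and −1.26, and CG14971 and CG10616 (arm 3L) had −1.51 and −1.13. On arm 2L, CG17633, CG15818, CG13795, CG18585 and CG17612 had −1.31, −1.12, −1.12, −1.11 and −1.04. On the X, CG15743 had −1.02. With the covariate CG3734 had −0.71, CG18585 −0.59, CG17612 −0.55 and CG13795 −1.89. CG18343 had the tightest mutant group of these, with an SD of 0.03.

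7 of the 43 genes had several probe sets, which read different stretches or transcript forms of 1 gene, and they did not all give the same answer. All 3 probe sets of CG7650 (arm 3L) were members, with log2 differences of −1.61, −1.33 and −1.03. Both probe sets of CG33096 (arm 3R) were members too, with −1.62 and −1.51. The dimmer one had 7.21, 6.58 and 6.91 in mutant replicates 1 to 3 and 8.28, 8.53 and 8.77 in wild type replicates 1 to 3. The dimmest probe set of CG7650 had 5.84, 5.51 and 5.69 in mutant replicates 1 to 3 and 6.94, 7.83 and 7.10 in wild type replicates 1 to 3. In these genes every probe set was lower by at least 1.

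CG5174 was intermediate. Its member probe set had −1.29, and the other probe sets had −0.89, −0.62 and −0.43, each with every mutant array below every wild type array. CG9449 (arm 3L) had −1.42 at its member and −0.64 at a brighter probe set whose groups overlap, and CG33523 had −0.49 at a brighter one that overlaps too. The values thus depend on the probe set by more than the SE of the member, which was 0.12, 0.26 and 0.20 for CG5174, CG9449 and CG33523.

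CG7920 and CG1407 showed the difference at 1 probe set only. The member of CG7920 (arm 3R) had 6.03, 6.85 and 7.31 in mutant replicates 1 to 3 and 8.21, 8.49 and 8.55 in wild type replicates 1 to 3. With the covariate this log2 difference of −1.69 was 0.26 (SE 0.36). The brightest probe set of CG7920 averaged 10.84 ± 0.11 in the mutants and 10.95 ± 0.22 in wild type (SD, n = 3 each), a log2 difference of −0.12. The brightest probe set of CG1407 averaged 10.03 ± 0.31 in the mutants and 10.39 ± 0.12 in wild type, and its remaining probe sets had −0.09 and −0.06. For CG7920 and CG1407 the groups overlap at the brightest probe set. All 10 further probe sets of member genes were lower in the mutant mean, with a median of −0.39.

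**Figure D3:**
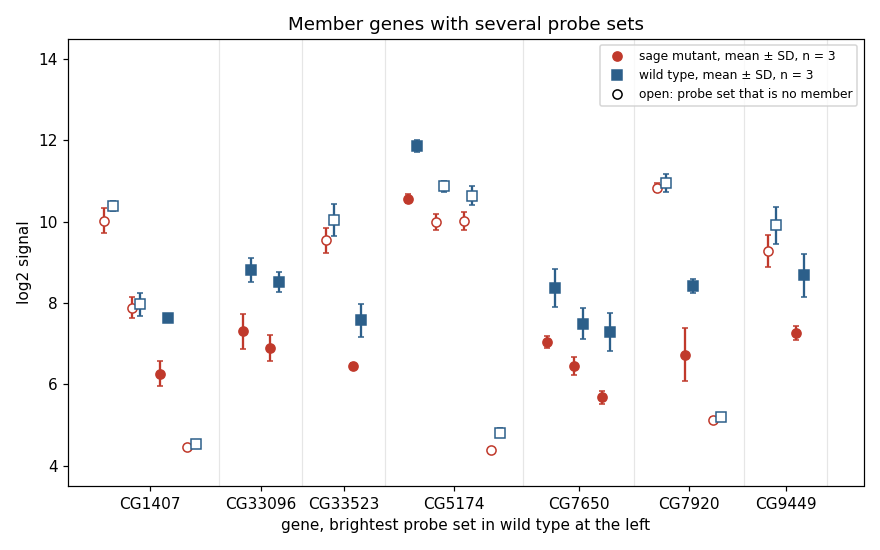
Mean log2 signal ± SD (n = 3 arrays) of every probe set of the 7 member genes with several, sage mutant (circles) left of wild type (squares), with filled symbols for members. All 3 probe sets of CG7650 and both of CG33096 are members, while the brightest of CG7920 differs by −0.12.

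The rule did not use position. 14 of the 46 probe sets were on arm 3L (30.4%), 12 on 2L (26.1%), 9 on 3R (19.6%), 8 on 2R (17.4%) and 3 on X (6.52%). Counted as genes, 3L and 2L held 12 of 43 each (27.9%), since CG7650 alone gives 3 of the probe sets on 3L, and 3R held 8. Of all CG probe sets with a wild type mean of at least 7 and a known arm, 20.7% were on 3L, 16.7% on 2L, 24.0% on 3R, 19.8% on 2R and 18.3% on X. The members thus had more on 3L and 2L and fewer on X than these, and these shares were not tested against each other. No member was on chromosome 4.

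In the order of protein-coding genes, 2 pairs of members were direct neighbours, CG13946 with CG13947 on 2L and CG17110 with CG6726 on 3R. CG13947 had 6.33, 6.55 and 6.23 in mutant replicates 1 to 3 and 7.49, 8.51 and 7.81 in wild type replicates 1 to 3. Its log2 difference of −1.57 was smaller than the −2.59 of CG13946 beside it, and wild type replicate 1 was the lowest wild type array in both. The genes on either side of this pair, CG12506 and Gr21a, had −0.45 and 0.12. Both flanking genes are dim, with wild type means of 4.50 and 4.88.

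CG17110 had 6.21, 5.61 and 5.59 in mutant replicates 1 to 3 and 7.12, 6.94 and 7.07 in wild type replicates 1 to 3. CG6726 had 7.02, 7.20 and 7.56 in mutant replicates 1 to 3 and 8.47, 8.49 and 8.57 in wild type replicates 1 to 3. The 2 genes had nearly equal log2 differences, −1.24 and −1.25, but opposite orders of the mutant arrays, since mutant replicate 1 was the highest for CG17110 and the lowest for CG6726. With the covariate CG17110 had −2.29 and CG6726 −0.52. The genes next to this pair, Cow and CG17109, had 0.03 and 0.31, and CG17109 was the brighter of them, with a mean of 9.31 in the mutants.

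Outside these pairs, 77 other genes directly beside a member were measured, with a median log2 difference of 0.01, and none was lower by at least 1 with groups that did not overlap. Within 5 positions on either side, 5 of 348 other genes (1.44%) met these criteria, against 1.26% of all 11982 genes by their brightest probe set. The 348 leave the members out, while 39 of the 151 genes behind the 1.26% are members. The shares are therefore of unlike sets and do not measure whether such genes gather near members. These 5 were Hen1, shams, Idh3g, RpL27 and Phs. RpL27, which encodes a ribosomal protein and lies 3 positions from CG5039, had the lowest value of the 5, at −1.85. Idh3g (−1.42) lies next to RpL27, 2 positions from CG5039. On either side of Idh3g and RpL27, CG4743 had −0.45, with overlapping groups, and CLS had −0.59, without overlap. The member nearest to a gene left out as nearly lost was CG13738, with 20 genes between it and CG8100 on 3L.

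**Figure D4:**
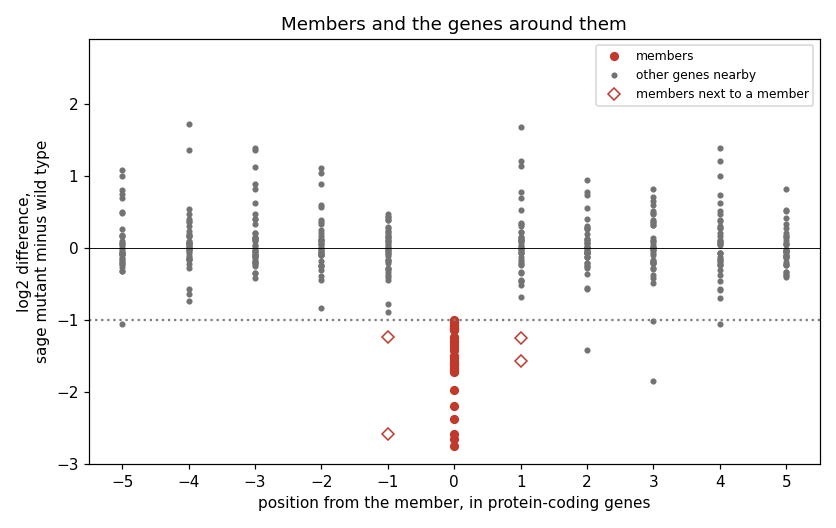
Log2 difference (sage mutant minus wild type) of the member probe sets at position 0 and of the genes up to 5 positions away in the order of protein-coding genes, the other genes by their brightest probe set; the dotted line is at −1. Genes beside members scatter around 0 (median 0.01), apart from the member pairs drawn as open diamonds.

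The arrays of a group did not weigh equally. Wild type replicate 2 was the highest wild type array for 29 of the 46 probe sets (63.0%), beside 52.7% of all CG probe sets with a wild type mean of at least 7. Mutant replicate 1 was the highest mutant array for 25 (54.3%), beside 41.0%. The median within-group SD of the members was 0.19 in the mutants and 0.29 in wild type, as in those CG probe sets, where it was 0.19 and 0.29. Without wild type replicate 2 the median log2 difference of the members was −1.30, and 39 of the 46 were still lower by at least 1.

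The control 5′ minus 3′ difference, which was lower in the mutants, was also entered as a covariate. 45 of the 46 members were still lower with it, with a median of −1.60, but only 38 were lower by at least 1. Set against the within-group SD of each member, 28 members moved by at least that SD, 17 by less, and 1 changed sign. 13 members moved by over 1.5 times. CG13738, CG3734, CG6726, CG18585, CG30283 and CG17612 came nearer to 0, and CG7920 passed it. CG18088, CG17110, CG13795, CG12288, CG9302 and CG13362 went further from 0. CG6726 had an SE of 0.32 with the covariate and CG17110 one of 0.30. These are near the low end of the members, whose SEs ran from 0.29 for CG17633 to 1.11 for CG13946. A member that is still lower with the covariate therefore need not stand clear of 0. The covariate is itself nearly a group difference, which widens the SEs, and whether the 5′ signal has a part in any 1 value was not tested further.

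**Figure D5:**
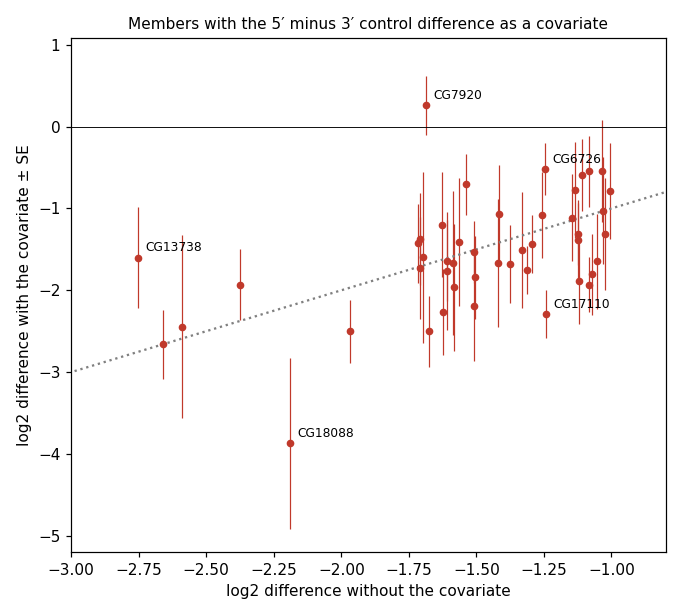
Log2 difference (sage mutant minus wild type) of each member with the control 5′ minus 3′ difference of each array as a covariate (± limma SE) against that without it; the dotted line marks equal values. CG7920 alone lies above 0, at 0.26, and 38 of the 46 are at −1 or lower.

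The members end where the limits were set, with no break in the values there. Just inside the limit on the fall were CG5504 (−1.004), CG15743 (−1.02) and a probe set of CG7650 (−1.03), and just outside it were CG4914 (−0.99), CG7872 (−0.99) and CG7741 (−0.98). Just inside the limit on the wild type mean were CG17110 (7.04), CG13946 (7.15) and CG33272 (7.19), and just outside it were CG9698 (6.99), CG8526 (6.98) and CG18213 (6.95). 1 further CG probe set, of CG31998, was lower by 1.53 but had overlapping groups.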

How the data were processed

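Whole-embryo RNA of 6 samples, 3 sage mutant and 3 wild type, was labelled with a 3′ in vitro transcription kit, per the labels' protocols. The authors deposited log2 signals, 1 per probe set and array, and RMA and Partek are named, without versions, per the submitters' processing notes. The log2 base was taken from the range of the values. No genome build is given in the sources used here, so no coordinates are printed.

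183 control probe sets were left out. The array annotation named 1 gene for 13647 probe sets, several for 402 and none for 4720. Symbols, arms, second names and gene order came from the RefSeq table of Release 6 plus ISO1 MT, which held all 46 member probe sets' genes. limma 3.58.1 in R 4.3.3 was fitted across all 18769 probe sets (lmFit, eBayes, group as the only term, Benjamini-Hochberg). The same fit was run on simulated data with independent noise, which lacked 5′ loss and shared deviations of replicates. That check therefore does not cover these features. Arrays number 3 per group, which limits precision. Arrays with the same replicate number deviated together (r = 0.17, 0.28 and 0.31), so a fit with that number as a block was also run. A signal summed over a list was taken on the linear scale.

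The members, the marker lists and the rule for naming genes were chosen with earlier results of these data known. Values per array are given for sage, the 15 members with the largest fall, the 5 brightest others and neighbouring members. Alternatives were centring, quantile normalization, a covariate for the 5′ loss of control transcripts, other variance models, leaving out each array, and other limits. Protein and promoter sequences were not analysed here.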

Additional observations from a re-analysis of the deposited data

How the results depend on the processing

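The number of member probe sets was 76 with a fall of at least 0.8 and 23 with at least 1.5, and lay between 43 and 57 without 1 array. Under the other limits, scalings and symbols it was within 1.5 times of 46. All 46 stayed members after centring each array on its median, and 45 after quantile normalization. The median log2 difference was −1.60 with the 5′ minus 3′ covariate and between −1.52 and −1.30 without 1 array. With that covariate 13 of the 46 members moved by over 1.5 times, 38 were lower by at least 1, and CG7920 changed sign, to 0.26. Set against the within-group SD of each member, 28 others moved by at least that SD and 17 by less. Without 1 array every member was still lower, which the rule on overlap fixed in advance. None moved by over 1.5 times.

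The limma calls were less stable. Members with an adjusted p under 0.05 numbered between 9 and 43 without 1 array. The count was 33 with the replicate block, in place of 42, and no log2 difference changed. Over all probe sets there were 757 calls, 641 with the replicate block, 2737 with array weights, and between 134 and 1111 without 1 array. Of the 757, 363 were lower and 394 higher, against 465 and 334 after centring. The replicate block moved no count by over 1.5 times. What raises the count under array weights was not tested, nor was the cause for CG7920. The planned protein, hydropathy and promoter alternatives were not run, since no sequences were used here.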
